A study of Mus musculus with 12 samples.

Results

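The uncoupling protein genes Ucp1, Ucp2 and Ucp3 were followed through every ATAC-seq peak that the deposited tables assign to them by gene symbol. These were 30 of 98116 peaks, with 21 of 58558 in the brown fat table and 9 of 39558 in the inguinal table. Brown fat gave 12 peaks to Ucp1, 3 to Ucp2 and 6 to Ucp3, and inguinal fat gave 3, 2 and 4. All 30 peaks held at least 10 reads in every sample, and DESeq2, a count test used as an alternative, gave 3 of them, in brown fat, no adjusted p.

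ATAC-seq uses a transposase that inserts sequencing adapters into open DNA, and the number of reads in a peak reflects how accessible the chromatin is there. The 4 groups were flox and AKO brown fat, with 3 mice per genotype, and flox and AKO inguinal fat (iWAT), with 3 aliquots per genotype of 1 pool of 6 mice kept at 10 °C for 7 days. All were mice on the C57BL/6 background that carry floxed alleles of BAF60a, the SWI/SNF subunit encoded by Smarcd1, and AKO mice carry Adiponectin-Cre in addition, which deletes the gene in adipocytes and leaves it in the other cells of the tissue. The cold-acclimated mice were 6 to 8 months old, and for the brown fat mice neither age nor housing temperature is given in the sources used here.

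Uncoupling proteins are carriers of the inner mitochondrial membrane. UCP1 lets protons return to the mitochondrial matrix without making ATP, which turns the energy of fuel oxidation into heat, and it is the defining protein of brown and beige adipocytes. UCP2 is found in many tissues and is abundant in immune cells, and UCP3 is best known from skeletal muscle and brown fat. Neither of these is thought to carry the thermogenic proton leak of UCP1. Ucp2 and Ucp3 are neighbours on the same chromosome and are read in the same direction, whereas Ucp1 lies on another chromosome.

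On the mm10 genome, Ucp1 lies on chromosome 8 from 83290352 to 83298452, Ucp3 on chromosome 7 from 100472991 to 100486432 and Ucp2 on chromosome 7 from 100493337 to 100502020, all on the forward strand. The sequences behind the main results are printed first. Promoters are the 250 bases before the RefSeq start on GRCm38.p6, the assembly that mm10 names, for which all 3 members had an entry. They are shown to compare the members at the same place. The 4 Ucp1 peak centres, each of 300 bases, are the other brown fat peaks within 10 kb of the start, since the largest differences lay there. The Ucp2 peak centre is the one inguinal member peak that count tests called. Capitals mark matches on either strand to AGGTCA, the half-site of many nuclear receptors, to a direct repeat of it with 1 base between (up to 3 mismatches, which can contain a half-site), to TGACG, the short form of a cAMP response element, to the EBF core CCCNNGGG, to the C/EBP core TTGCNNAA or to the GC box GGGCGG.
Ucp1 promoter, chr8:83290098-83290347, forward strand: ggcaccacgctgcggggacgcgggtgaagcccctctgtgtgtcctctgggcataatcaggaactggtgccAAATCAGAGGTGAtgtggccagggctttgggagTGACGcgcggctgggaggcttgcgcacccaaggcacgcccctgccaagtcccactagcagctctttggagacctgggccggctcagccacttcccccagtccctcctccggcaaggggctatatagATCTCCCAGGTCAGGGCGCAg
Ucp2 promoter, chr7:100493108-100493357, forward strand: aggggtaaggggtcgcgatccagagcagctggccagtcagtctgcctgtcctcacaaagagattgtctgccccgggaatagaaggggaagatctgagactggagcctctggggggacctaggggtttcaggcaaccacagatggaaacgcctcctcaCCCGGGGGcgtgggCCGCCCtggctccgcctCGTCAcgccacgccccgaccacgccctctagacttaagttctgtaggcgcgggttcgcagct
Ucp3 promoter, chr7:100472741-100472990, forward strand: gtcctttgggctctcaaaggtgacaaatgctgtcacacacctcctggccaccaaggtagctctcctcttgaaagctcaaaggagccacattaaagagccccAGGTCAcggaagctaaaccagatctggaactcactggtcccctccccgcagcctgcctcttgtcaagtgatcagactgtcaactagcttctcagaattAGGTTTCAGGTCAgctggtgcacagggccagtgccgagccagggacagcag
Ucp1 peak at −5206 bp, chr8:83284997-83285296, forward strand: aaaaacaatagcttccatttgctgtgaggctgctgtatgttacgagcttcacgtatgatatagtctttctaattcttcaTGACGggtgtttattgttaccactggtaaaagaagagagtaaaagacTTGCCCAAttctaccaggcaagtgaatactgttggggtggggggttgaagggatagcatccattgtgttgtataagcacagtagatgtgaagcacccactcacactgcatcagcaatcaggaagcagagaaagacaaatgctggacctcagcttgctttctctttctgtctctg
Ucp1 peak at −2469 bp, chr8:83287734-83288033, forward strand: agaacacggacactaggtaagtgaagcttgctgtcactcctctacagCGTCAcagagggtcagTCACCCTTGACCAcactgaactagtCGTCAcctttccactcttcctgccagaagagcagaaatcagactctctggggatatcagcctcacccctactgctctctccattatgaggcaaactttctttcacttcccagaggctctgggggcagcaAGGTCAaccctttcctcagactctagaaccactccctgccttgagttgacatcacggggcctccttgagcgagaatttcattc
Ucp1 peak at +7134 bp, chr8:83297337-83297636, forward strand: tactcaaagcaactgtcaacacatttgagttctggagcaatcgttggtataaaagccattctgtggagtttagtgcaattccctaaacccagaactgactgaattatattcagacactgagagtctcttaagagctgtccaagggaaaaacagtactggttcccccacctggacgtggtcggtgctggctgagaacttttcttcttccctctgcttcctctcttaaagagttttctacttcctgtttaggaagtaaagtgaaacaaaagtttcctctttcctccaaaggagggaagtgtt
Ucp1 peak at +9204 bp, chr8:83299407-83299706, forward strand: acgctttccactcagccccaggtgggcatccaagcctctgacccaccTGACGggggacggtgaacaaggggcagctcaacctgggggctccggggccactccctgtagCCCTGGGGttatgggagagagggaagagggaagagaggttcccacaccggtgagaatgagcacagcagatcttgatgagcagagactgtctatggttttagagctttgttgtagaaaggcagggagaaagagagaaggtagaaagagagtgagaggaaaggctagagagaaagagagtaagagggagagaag
Ucp2 peak at +2563 bp of inguinal fat, chr7:100495751-100496050, forward strand: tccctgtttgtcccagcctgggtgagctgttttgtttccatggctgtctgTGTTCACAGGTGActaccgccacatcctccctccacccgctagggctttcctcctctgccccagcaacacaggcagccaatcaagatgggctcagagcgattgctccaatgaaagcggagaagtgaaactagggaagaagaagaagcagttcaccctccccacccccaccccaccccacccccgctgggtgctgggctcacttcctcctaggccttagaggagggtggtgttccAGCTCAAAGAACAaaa

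The centre of the −2469 bp peak held 2 copies of TGACG on the reverse strand, starting −103 and −62 bases from the middle of the window. A direct repeat with 3 mismatches lay between them, starting at −87, and an AGGTCA followed at 67. The Ucp1 promoter held 1 TGACG, at −147 from the RefSeq start, and 1 AGGTCA, at −14. It also held direct repeats with 3 mismatches, at −180, −21 and −14. The Ucp3 promoter held 2 copies of AGGTCA and a direct repeat with 2 mismatches, at −51. The Ucp2 promoter held no AGGTCA but had a GC box, an EBF core and 1 TGACG, at −62. No match to any of the 6 motifs was found in the centre of the +7134 bp peak.

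Over the 12 brown fat Ucp1 peaks, the central 300 bases held TGACG in 5, against 15.2% of all brown fat peaks, and AGGTCA in 3, against 22.9%. The direct repeat was found in 5 of the 12, against 32.3%, the C/EBP core in 2, against 15.1%, and the EBF core in 1, against 18.7%. The GC box was in none, against 20.7%. Among all 32851 promoters, 17.8% held TGACG and 14.0% AGGTCA. These matches describe the letters of the windows and were not tied to any measured binding. The start peaks also differed in composition, since the peak over the Ucp2 start had 47.0 CpG dinucleotides per kb, the one over the Ucp1 start 41.5 and the one over the Ucp3 start 13.2.

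Values are normalized reads, meaning the read count of a peak after division by the library's size factor, and are listed in the order of replicates 1, 2 and 3. Reads in peaks numbered 10115267 to 27500738 in flox and 6336670 to 13821838 in AKO brown fat, and 4066720 to 6691161 in iWAT. Differences are log2 fold changes of AKO over flox from limma on log2(normalized reads + 1), and an adjusted p under 0.1, with Benjamini-Hochberg adjustment over all peaks of a table, counted as a call. In brown fat the score on the leading principal component (PC1, 55.6% of the variance) was a covariate. At the targeted gene, the Smarcd1 peak over exon 5 and parts of introns 4 and 5 averaged 174 ± 33.9 normalized reads for flox and 36.2 ± 18.9 for AKO brown fat (SD, n = 3). The inguinal table lists no peak there, so that the inguinal labels could not be checked in this way. Markers of the brown fat depot, Zic1, Lhx8, Prdm16 and Ebf2, had 22 peaks in brown fat, summing to between 5472 and 6011 in flox and between 4769 and 5416 in AKO mice, and 12 in inguinal fat.

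Ucp1 was the member with the broad difference. Its 12 brown fat peaks together held 7819.6, 6699 and 5091 normalized reads in the flox mice, while the AKO mice had 2863, 2580.4 and 2246. The AKO mean was 39.2% of the flox mean, and the groups did not overlap. At 9 of the 12 peaks all AKO values lay below all flox values, which held for 8.84% of all brown fat peaks, and 11 of the 12 log2 fold changes were negative, against 49.1% of all peaks. The median over the 12 was −0.82, beside 0.01 over all peaks. In bulk tissue, fewer adipocyte nuclei and less accessibility per nucleus cannot be told apart. The 28 peaks of the adipocyte markers Adipoq, Plin1, Fabp4, Cidec, Lipe and Lep summed to between 16246 and 17619 normalized reads in flox and between 11581 and 16200.5 in AKO brown fat, and the sums did not overlap. AKO lay below flox at 7 of the 28, against 8.84% of all peaks, and above at 3, against 8.77%. The part of this in the Ucp1 difference was not tested.

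Limma called 0 of the 12 at an adjusted p under 0.1, as it called 0% of all 58558 peaks, and 9 of the 12 had an unadjusted p under 0.05 with AKO lower, against 5.59% of all peaks. Count tests on the reads recovered from the table called some of them. DESeq2 with the same covariate called 5 of the 10 that it gave an adjusted p, all lower in AKO, against 0.298% of all peaks, and edgeR and limma with a mean-variance trend called 4 each, against 0.114% and 0.0751%. These 4 were the peaks at −5206, +25, +7134 and +9204 bp.

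The peak over the Ucp1 start, from 83289980 to 83290774, covers the promoter, exon 1 and the beginning of intron 1. Its flox values were 1556, 1247 and 816 and its AKO values 363, 315 and 285 normalized reads. The lowest flox value, 816, was thus well above the highest AKO value, 363. By the p-value of DESeq2 it ranked 4 of all brown fat peaks, with an adjusted p of 9.4e-09 in that test and 0.417 in limma.

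The 2 peaks at the far end of the gene had the largest differences among all 30. The peak at +7134 bp, within intron 5, held 444, 276 and 232 in flox against 77.3, 73.4 and 54.7 in AKO mice. Just beyond the last exon, the peak at +9204 bp, 1654 bp wide, held 1629, 1143 and 952 in flox against 312, 332 and 227 in AKO mice. AKO means were 21.6% and 23.4% of the flox means, and neither peak overlapped between genotypes. Their log2 fold changes of −1.89 and −1.93 (SE 0.326 and 0.318) were lower than those of all but 0.027% and 0.019% of the brown fat peaks.

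**Figure D1:**
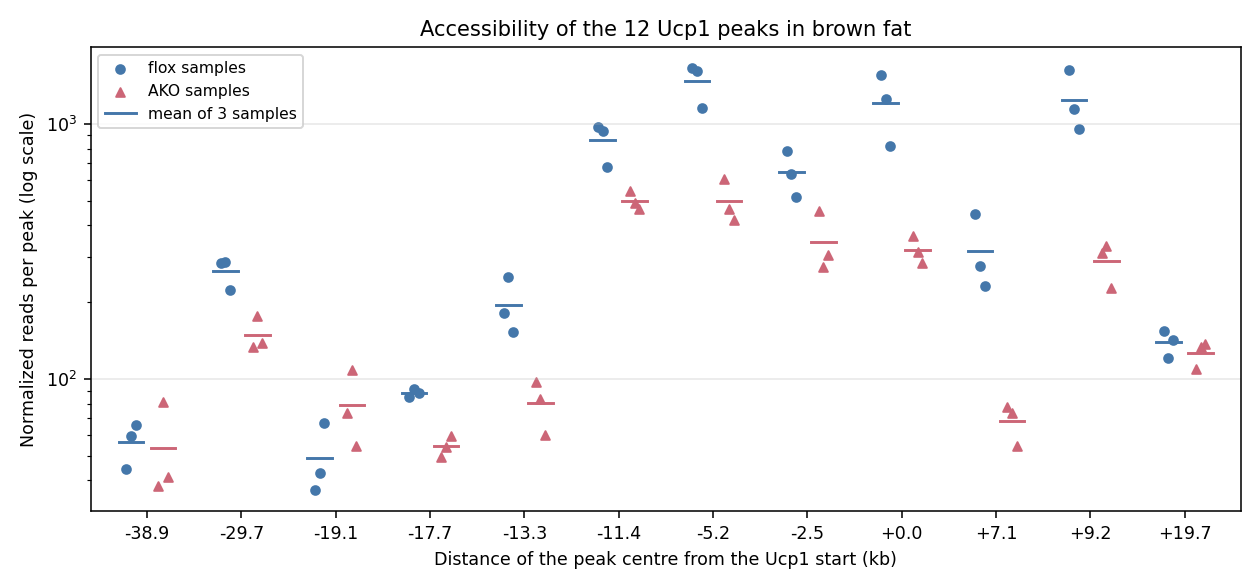
Normalized reads (log scale) of the 12 brown fat peaks assigned to Ucp1, ordered by the distance of the peak centre from the Ucp1 start; each circle is 1 flox mouse, each triangle 1 AKO mouse, and lines are means of 3. The 3 AKO mice lie below the 3 flox mice at 9 peaks, and the genotypes overlap at −38.9, −19.1 and +19.7 kb.

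Upstream of the gene, the peak at −5206 bp, 1641 bp wide, had the highest mean of the 12 in flox mice. Its flox values were 1649, 1605 and 1158 and its AKO values 610.3, 462 and 418, and its adjusted p was 1.2e-07 in DESeq2. The narrower peak at −2469 bp held 783, 638 and 516 in flox against 456, 274 and 305 in AKO mice, so that the genotypes did not overlap here either. Its log2 fold change of −0.50 (SE 0.225, adjusted p = 0.567 in limma and 0.552 in DESeq2) depended on the covariate, and without PC1 it was −0.92, with an adjusted p of 0.028 in DESeq2.

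Per kb of peak, the −2469 bp and the start peak stood almost level in flox mice, with mean densities of 1522 and 1517 normalized reads per kb, at percentiles 99.79 and 99.78 of all brown fat peaks. In AKO mice the densities were 814 and 404, at percentiles 97.6 and 77.5. The +7134 bp peak went from the percentile 86.6 in flox to 2.5 in AKO mice, and the +9204 bp peak from 94.4 to 17.7. The densest Ucp1 peak in AKO mice was thus the one at −2469 bp.

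**Figure D2:**
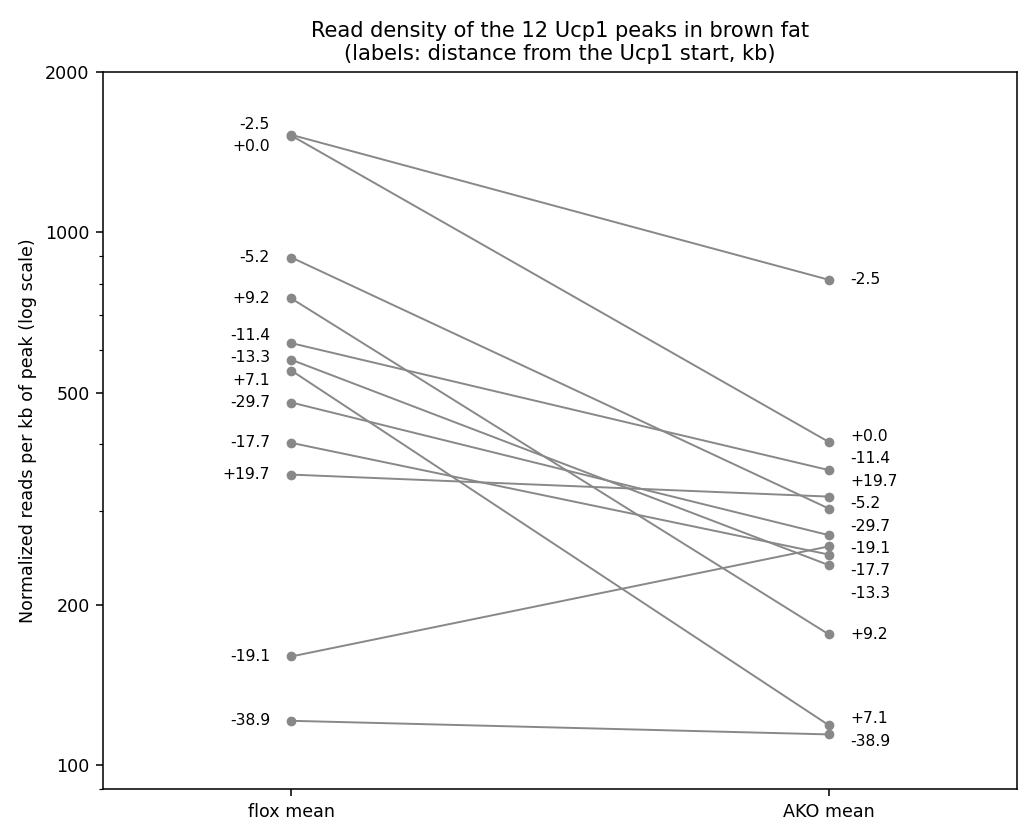
Mean normalized reads per kb of peak (log scale) of the 12 brown fat Ucp1 peaks in flox (left) and AKO mice (right), 3 mice each; lines join the same peak and labels give its distance from the Ucp1 start in kb. The −2.5 kb and start (+0.0) peaks are level in flox at 1522 and 1517 and apart in AKO at 814 and 404.

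Another 2 upstream peaks, beyond 10 kb, had lower values in AKO mice. At −13251 bp (83276933 to 83277270) the flox mice had 181, 251 and 153 and the AKO mice 96.9, 83.1 and 60.4, a log2 fold change of −1.20 (SE 0.331, adjusted p = 0.466 in limma and 0.092 in DESeq2). At −11433 bp (83278222 to 83279617) these were 975, 938 and 679 for flox and 544, 489 and 464 for AKO, a log2 fold change of −0.57 (SE 0.216). The genotypes did not overlap at either peak.

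Farther upstream, 4 peaks that the table assigns to Ucp1 lie inside Tbc1d9, the neighbouring gene, so that their assignment rests on the distance to a start site. At −29667 bp (83260410 to 83260961) flox values were 284, 287 and 222 and AKO values 133, 176 and 138. The peak at −17661 bp (83272582 to 83272800) held 84.6, 91.6 and 88.0 in flox against 49.5, 54.1 and 59.5 in AKO mice. Neither overlapped between genotypes, with AKO lower and log2 fold changes of −0.87 and −0.72 (SE 0.240 and 0.187, unadjusted p = 0.0085 and 0.0063, adjusted p = 0.466 and 0.444 in limma).

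The other 2 peaks inside Tbc1d9 overlapped between genotypes. At −19099 bp (83271101 to 83271406) flox mice had 36.6, 42.9 and 67.3 and AKO mice 73.2, 108 and 54.7, and the log2 fold change of 0.07 was the one positive value among the 12. Its AKO mean was 161% of flox, and without the PC1 covariate the log2 fold change was 0.67. At −38889 bp (83251229 to 83251697) flox had 44.4, 59.9 and 66.0 and AKO 38.1, 81.1 and 41.3, where the fitted log2 fold change of −0.77 shrank to −0.15 without the PC1 covariate. Downstream, the peak at +19710 bp (83309864 to 83310260) held 154, 121 and 142 in flox against 109, 133 and 137 in AKO mice, a log2 fold change of −0.16 (SE 0.221).

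Peaks near the gene and peaks farther away were also summed separately. The 5 within 10 kb of the start came to 6060.3, 4909 and 3674 for the flox mice and 1818, 1456 and 1290.4 for the AKO mice, an AKO mean of 31.2% of flox. Over the 7 peaks farther away the AKO mean was 62.9% of flox. At 4 of the 7 all AKO values lay below all flox values, against 8.84% of all peaks. The nearer 5 held 72.2% to 77.5% of the Ucp1 reads of a flox mouse and 56.4% to 63.5% of those of an AKO mouse. The split at 10 kb was chosen after the values were seen and was not tested.

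The flox mice differed among themselves at Ucp1, and their order, replicate 1 over 2 over 3, was also that of their depth, with 27500738, 18049959 and 10115267 reads in peaks. Among AKO mice the deepest, replicate 3, had the lowest Ucp1 sum. The PC1 scores used as the covariate were −98.2, −41.8 and 14.6 for flox and −0.617, 112 and 13.5 for AKO mice. The deepest brown fat library, flox replicate 1, thus had the lowest score, and the shallowest, AKO replicate 2, the highest. The part of depth in the Ucp1 difference, and in its change without PC1, was not tested.

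Leaving out 1 mouse at a time, DESeq2 called 3 or 4 of the 12 peaks. Without flox replicate 1, 2 or 3 the calls with AKO lower covered 0.176%, 0.155% and 0.0454% of all peaks given an adjusted p, and without AKO replicate 1, 2 or 3 they covered 0.129%, 0.319% and 0.230%. The start and −5206 bp peaks were called in all 6 of these fits. The +9204 bp peak was not called without AKO replicate 1 (adjusted p = 0.416 in DESeq2), and the +7134 bp peak got no adjusted p from DESeq2 without flox replicate 2, where its unadjusted p was 1.0e-07. The −13251 bp peak was called in 0 of the 6, with 2 fits that gave it no adjusted p and 4 with an adjusted p from 0.227 to 0.538 in DESeq2. Without PC1, DESeq2 called 8 of the 12, against 0.517% of all peaks.

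The peaks of the next genes were compared in the same way. Within 100 kb of the Ucp1 start the brown fat table lists 6 peaks of Tbc1d9, Elmod2 and Mgat4d. Limma called 0 of them, as it called 0% of all peaks. DESeq2 called 0 of the 3 that it gave an adjusted p, against 0.298% of all peaks lower and 0.110% higher. At 1 of the 6 all AKO values lay below all flox values, against 8.84% of all peaks. That 1 peak, of Elmod2 at 42155 bp from the Ucp1 start, averaged 606 ± 57.3 for flox against 502 ± 42.4 for AKO (SD, n = 3), which limma put at a log2 fold change of −0.12. The Mgat4d peak averaged 199.7 ± 5.70 and 200.3 ± 5.22. The 2 largest positive log2 fold changes were 1.13 and 1.0 (unadjusted p = 0.0069 and 0.018, adjusted p = 0.446 and 0.489 in limma), at a Tbc1d9 and an Elmod2 peak. These 2 peaks had at most 42.6 normalized reads on average, their genotypes overlapped and they got no adjusted p from DESeq2.

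**Figure D3:**
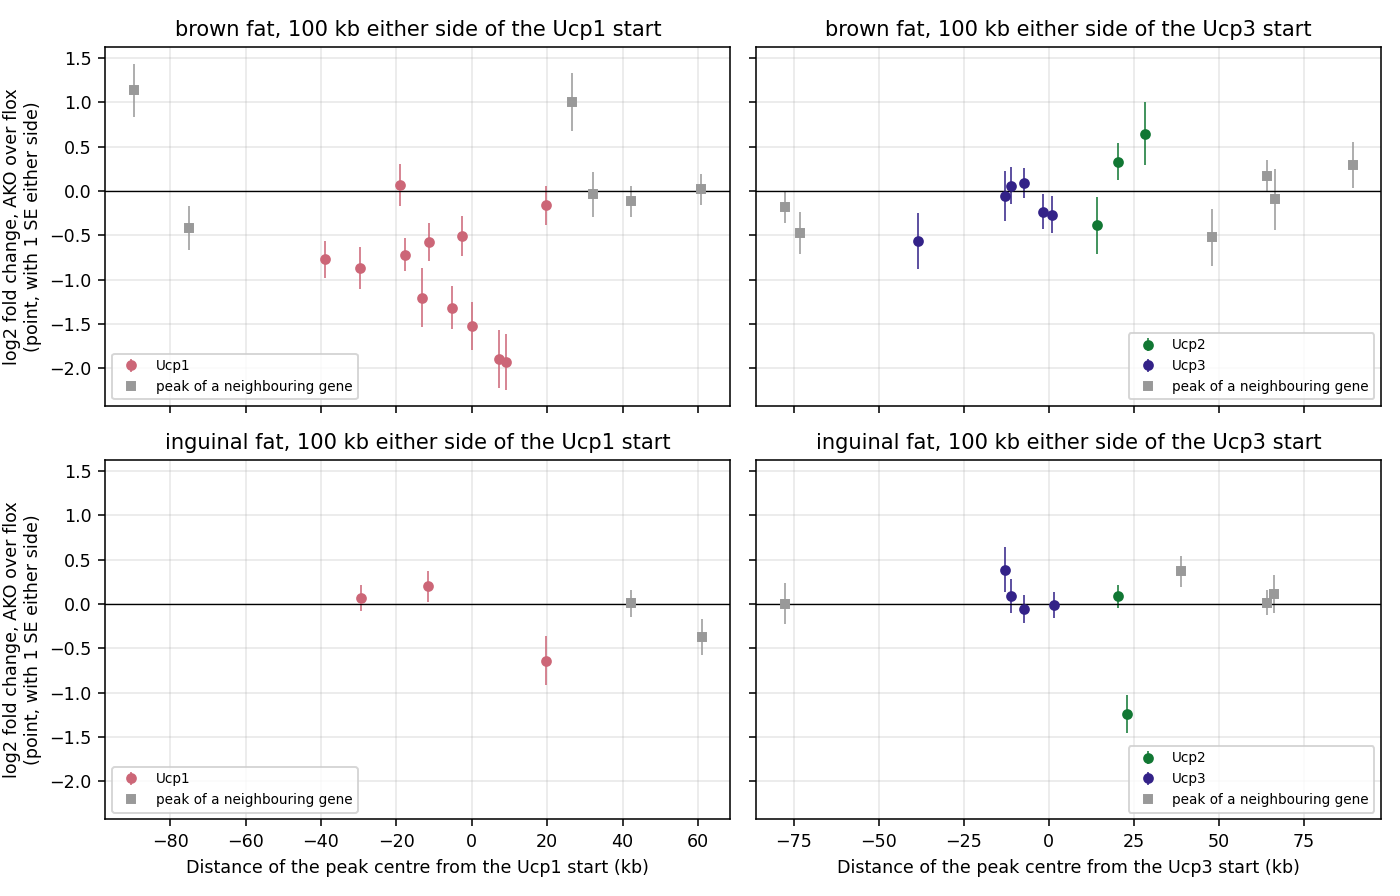
Log2 fold change of AKO over flox (limma, with 1 SE either side) of every peak within 100 kb of the Ucp1 start (left) and of the Ucp3 start (right), in brown fat (top) and inguinal fat (bottom), against the distance of the peak centre in kb; circles are peaks of the members and grey squares those of other genes. In brown fat the Ucp1 peaks reach −1.93 near the gene, and in inguinal fat the lowest member value is −1.24, at Ucp2.

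Ucp3, the paralog expressed in brown fat and muscle, had no call in brown fat. Its 6 peaks summed to 5145, 4556 and 3659 for the flox mice and to 3862, 2714 and 3158 for the AKO mice. The AKO mean was 72.9% of flox, and the genotypes overlapped, since AKO replicate 1 was above flox replicate 3. At 2 of the 6 peaks all AKO values lay below all flox values, against 8.84% of all peaks. Limma and edgeR called 0 of the 6, and DESeq2 called 0 of those that it gave an adjusted p, which 1 of the 6 lacked. Over all peaks, limma called 0%, and edgeR and DESeq2 called 0.114% and 0.298% lower. An unadjusted p under 0.05 in limma was reached by 0 of the 6, against 5.59% of all peaks with AKO lower and 3.46% with AKO higher. The skeletal muscle markers had 5 brown fat peaks, which summed to between 409 and 472 in flox and between 405 and 606 in AKO mice, and Ckm, Myh1, Tnnt3, Mylpf and Myod1 had none.

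The peak over the Ucp3 start, from 100472792 to 100475132 and reaching through exon 1 into intron 1, held 1753, 1594 and 1197 in flox against 1219, 834 and 915 in AKO mice, with a log2 fold change of −0.27 (SE 0.207). At −1871 bp (100470472 to 100471768) flox mice had 1281, 967 and 925 and AKO mice 869, 610.3 and 687, and the genotypes did not overlap, with a log2 fold change of −0.23 (SE 0.198). Without the PC1 covariate these were −0.61 and −0.55. Both peaks, like the 3 next upstream, also overlap Gm10603, an antisense transcript, and ATAC-seq reads carry no strand of a gene.

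Another 4 of the Ucp3 peaks lie inside C2cd3, the gene upstream. The one farthest away, at −38562 bp, held 62.2, 103 and 58.2 in flox against 44.3, 54.1 and 51.8 in AKO mice, not overlapping, with a log2 fold change of −0.57 (SE 0.316). The peaks at −12855, −11131 and −7314 bp had log2 fold changes of −0.05, 0.06 and 0.09, and their genotypes overlapped. The sign of the last 2 depended on the covariate, without which they were −0.29 and −0.36 and all 6 Ucp3 values were negative, as were 51.7% over all peaks.

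Ucp2 had higher values in AKO mice at its start and in its last exon. Its 3 brown fat peaks together came to 505, 593 and 555 for flox and 699, 668 and 669 for AKO, an AKO mean of 123% of flox with no overlap. The peak over the start (100492807 to 100494062) held 341, 460.4 and 384 in flox against 521, 494 and 502 in AKO mice, a log2 fold change of 0.33 (SE 0.211, adjusted p = 0.677 in limma and 0.823 in DESeq2). A narrow peak in exon 8, the last exon, at +7877 bp (100501111 to 100501317) held 25.6, 47.3 and 69.9 in flox against 86.6, 98.5 and 111 in AKO mice, a log2 fold change of 0.65 (SE 0.355), or 1.14 without PC1. With 1 mouse left out this value ranged from 0.37, without AKO replicate 3, to 1.14, without flox replicate 3.

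At both of these Ucp2 peaks all AKO values lay above all flox values, which held for 8.77% of all brown fat peaks. Limma, edgeR and DESeq2 called neither, while edgeR and DESeq2 called 0.0290% and 0.110% of all peaks higher. The remaining peak, at −6068 bp between the end of Ucp3 and the start of Ucp2, held 138, 85.7 and 101 in flox against 91.7, 75.3 and 55.6 in AKO mice, a log2 fold change of −0.39 with overlap. In the macrophage marker list, whose cells are rich in UCP2, Adgre1, Mrc1 and Tyrobp had 1 peak each, and these 3 summed to between 249.8 and 404 in flox and between 250.5 and 433 in AKO mice, which overlapped. The genes Csf1r, Cd68, Lyz2, Itgam and Fcgr1 had no peak.

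**Figure D4:**
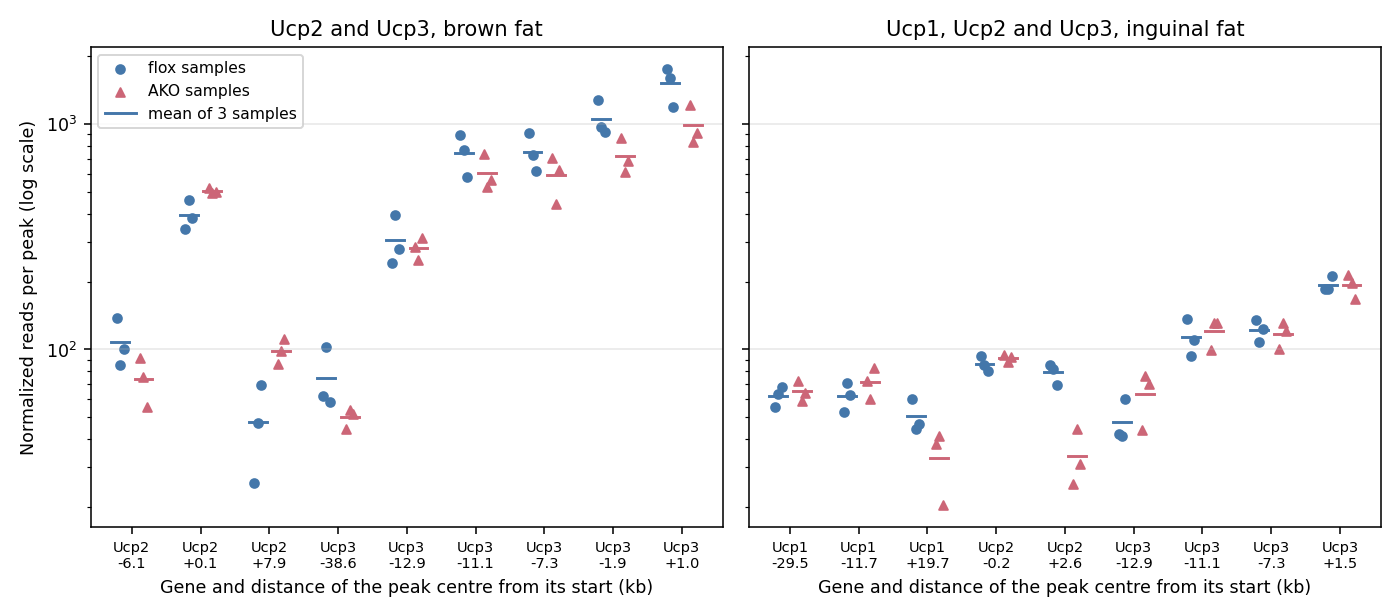
Normalized reads (log scale) of the brown fat peaks of Ucp2 and Ucp3 (left) and of all 9 inguinal peaks of the 3 members (right), by gene and distance of the peak centre from its start; circles are flox samples, triangles AKO samples and lines means of 3. The AKO samples lie above flox at 2 Ucp2 peaks in brown fat and far below at 1 Ucp2 peak in inguinal fat.

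Seen side by side on a per-length scale, the start peaks of the 3 genes came to similar densities in AKO brown fat. In flox mice Ucp1 had 1517 ± 467 normalized reads per kb, Ucp3 647 ± 122 and Ucp2 315 ± 48.2 (SD, n = 3), and the ranges of the 3 genes did not overlap. In AKO mice the same peaks had 404 ± 49.4, 423 ± 86.5 and 403 ± 10.7, and all 3 ranges overlapped. The peaks differ in width (795, 2341 and 1256 bp), which enters these densities, and the order of the 3 in AKO mice could not be told within their spread.

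In inguinal fat Ucp1 had 3 peaks, and none over its start or within 10 kb of it. At −29489 bp the flox aliquots had 55.6, 63.4 and 68.0 and the AKO aliquots 72.6, 59.4 and 64.2. At −11696 bp they had 52.7, 71.2 and 62.8 and 72.6, 60.5 and 82.3. These 2 peaks overlapped between genotypes, with log2 fold changes of 0.07 and 0.20 (SE 0.146 and 0.175).

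The remaining inguinal Ucp1 peak, at +19745 bp, held 60.6, 44.5 and 46.5 in flox against 38.0, 41.1 and 20.3 in AKO aliquots, so that all AKO values lay below all flox values, as at 10.3% of all inguinal peaks. Its log2 fold change was −0.64 (SE 0.276, unadjusted p = 0.051, adjusted p = 0.335 in limma and 0.422 in DESeq2). Over the 3 peaks, the AKO sum was 97.3% of flox. All 9 inguinal members rest on 19 to 260 reads per sample, and the aliquots of 1 pool measure technical spread only, so that these p-values do not extend to mice.

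The largest inguinal difference was at Ucp2. A peak in its intron 2, spanning 100495734 to 100496066, held 85.5, 82.3 and 69.7 in flox against 25.4, 44.5 and 31.0 in AKO aliquots. The groups did not overlap, and the AKO mean was 42.5% of flox. Its log2 fold change was −1.24 (SE 0.217, adjusted p = 0.149 in limma). Limma called 0% of all inguinal peaks, and 7.42% had an unadjusted p under 0.05 with AKO lower. DESeq2 called it, with an adjusted p of 0.0091 and 0.630% of all peaks called lower, as did edgeR and limma with a mean-variance trend, which called 2.52% and 2.00% of all peaks lower.

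Leaving out 1 aliquot at a time, DESeq2 called the peak in 3 of 6 fits. It was called without flox aliquot 2, flox aliquot 3 or AKO aliquot 2, where 1.01%, 0.0480% and 0.0556% of all peaks were called lower. It was not called without flox aliquot 1, AKO aliquot 1 or AKO aliquot 3, where these shares were 0.0101%, 0.0957% and 0.104% and the adjusted p of the peak in DESeq2 was 0.143 to 0.371. The brown fat table lists no peak at this place. In the same libraries the macrophage list summed to between 206 and 241 for flox and between 172 and 218 for AKO aliquots, which overlapped. Ptprc, a gene that leukocytes in general express, had 2 inguinal peaks, with 34.9, 43.4 and 21.5 in flox against 8.07, 13.7 and 18.2 in AKO aliquots at the one and 94.8, 92.3 and 99.0 against 70.3, 58.2 and 42.8 at the other. All AKO values thus lay below all flox values at both Ptprc peaks, as at 10.3% of all inguinal peaks, and limma and DESeq2 called neither, the first of them without an adjusted p from DESeq2. Ptprc was picked from the lymphocyte markers, the rest of which are not reported here, so that it cannot stand for that list. The endothelial and skeletal muscle lists were lower in AKO aliquots without overlap, at 900 to 953 against 960 to 1030 and at 757 to 789 against 797 to 997, and the fibroblast list overlapped. Their part in the Ucp2 difference was not tested.

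Over the Ucp2 start, the inguinal peak held 93.4, 85.6 and 80.0 in flox against 94.5, 87.9 and 93.0 in AKO aliquots, a log2 fold change of 0.09 (SE 0.129). The 4 Ucp3 peaks overlapped between genotypes, with log2 fold changes of 0.39, 0.09, −0.06 and −0.01 from the farthest upstream to the one in intron 1, and the AKO sum was 104% of flox. In the windows of 100 kb around the members the inguinal table lists 8 peaks of other genes, and limma and DESeq2 called 0 of them. Over all inguinal peaks limma called 0%, and DESeq2 called 0.630% lower and 0.546% higher.

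Of the members' peaks, 8 pairs were found in both tissues by an overlap of at least 1 bp, and the AKO minus flox difference of the mean log2 values was compared between the tissues at each. The exact permutation test shuffled genotypes within each tissue and was two-sided, without the PC1 covariate, over 400 labelings with a smallest p of 0.005, and p-values were adjusted over the 8 pairs. At the peak near −29.7 kb of Ucp1 (−29667 bp in brown fat), the difference was −0.82 in brown and 0.07 in inguinal fat, apart by −0.89 (p = 0.025, adjusted p = 0.1, exact permutation test). At −11433 bp it was −0.78 and 0.20, apart by −0.98 (p = 0.02, adjusted p = 0.1, exact permutation test).

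The remaining Ucp1 pair ran the other way, with −0.14 in brown and −0.64 in inguinal fat (p = 0.31, exact permutation test). For Ucp2 and Ucp3 the 5 pairs differed by −0.60 to 0.28 between tissues, and the lowest and highest unadjusted p were 0.115 and 0.405 (exact permutation test). No pair had an adjusted p under 0.1. Since the test shuffles both tissues, it asks whether the genotypes are exchangeable in both at once, and the inguinal values measure aliquots where the brown values measure mice.

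**Figure D5:**
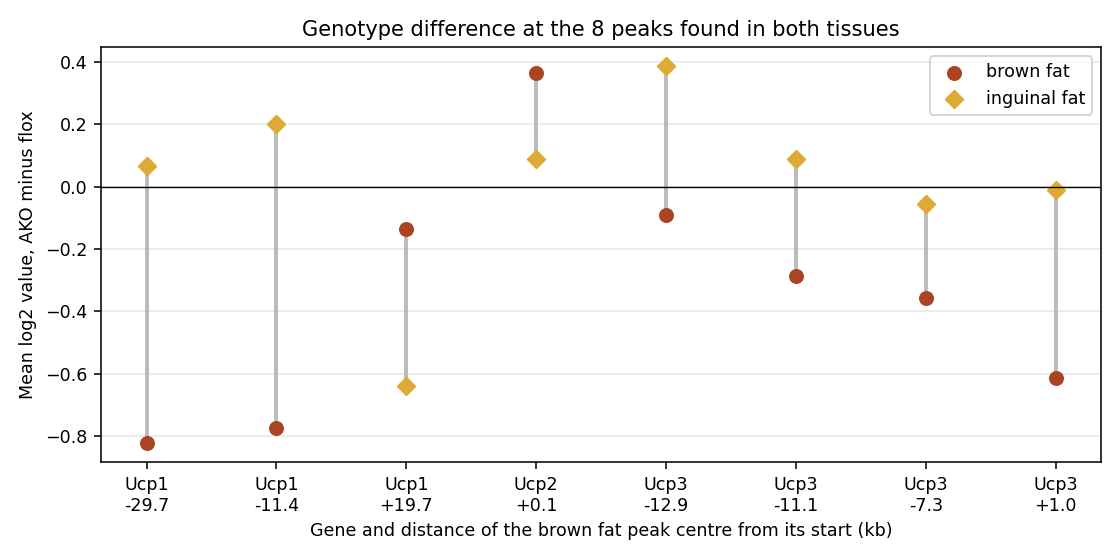
Mean log2(normalized reads + 1) of AKO minus flox samples at the 8 peaks of the members found in both tissues, for brown fat (circles) and inguinal fat (diamonds), 3 samples per genotype and tissue. The widest gaps are at the Ucp1 peaks at −29.7 and −11.4 kb, where brown fat is at −0.82 and −0.78 and inguinal fat at 0.07 and 0.20.

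The other thermogenic genes gave the setting of these values. Of 18 genes listed for thermogenesis, 17 had peaks in brown fat. Of their 144 peaks, 125 had a negative log2 fold change, against 49.1% of all peaks, and the median was −0.32. AKO lay below flox with no overlap at 53, against 8.84% of all peaks, and above at 3, against 8.77%. Limma called 0 and DESeq2 4, all lower, against 0.298% of all peaks. All 33 peaks of Ppargc1a, the coactivator of mitochondrial genes, and all 16 of Dio2, the deiodinase that activates thyroid hormone, had negative values, and the 2 peaks of Prdm16 did not.

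Smallest in unadjusted p were 2 peaks of Dio2, with log2 fold changes of −1.02 and −1.15, and 1 of Otop1, a proton channel, with −0.77. The Dio2 peak with −1.02 held 101, 134 and 168 in flox against 74.2, 145 and 89.2 in AKO mice. Its genotypes overlapped, and without PC1 its value was −0.41. DESeq2 called the Dio2 peak with −1.15 and the Otop1 peak (adjusted p = 1.4e-04 and 1.0e-05). In inguinal fat 34 of 53 thermogenic peaks had a positive value, against 49.9% of all peaks, with a median of 0.12 beside −0.00 over all peaks. AKO lay above flox with no overlap at 15, against 10.6% of all peaks, and below at 2, against 10.3%. DESeq2 called 2, both higher, against 0.546% of all peaks. The leading peaks there were 1 of Letmd1 with 0.96 and 2 of Ppargc1b with 0.75 and 0.56, and limma called 0 of the 53.

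Among the close relatives in the mitochondrial carrier family, 6 of 9 genes had peaks. In brown fat 13 of their 17 peaks had a positive value, against 50.9% of all peaks, and 1 had AKO below flox, against 8.84%, and 1 above, against 8.77%. Limma and DESeq2 called 0 of them, and 3 had an unadjusted p under 0.05 in limma with AKO higher, against 3.46% of all peaks. These 3 belonged to Slc25a1, the citrate carrier, and Slc25a30, with values from 0.56 to 0.70. Their genotypes overlapped, and without PC1 the values were 0.10 to 0.40. The median over the 17 peaks was 0.13, or 0.03 without PC1. In inguinal fat DESeq2 called 3 of 16 peaks lower, against 0.630% of all peaks, all of Slc25a10, the dicarboxylate carrier, which led the list with −0.93 and −0.74, followed by Slc25a1 with 0.43. The paralogs Smarcd2 and Smarcd3 of the targeted gene had 4 brown and 5 inguinal peaks, and DESeq2 called 0 of these. Over all peaks it called 0.298% lower and 0.110% higher in brown fat, and 0.630% and 0.546% in inguinal fat.

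As a description, peaks of other chromosomes were ranked by Pearson correlation with a member's start peak over the 6 samples of a table, for which samples of 1 genotype share their level. In brown fat the highest for the Ucp1 start peak were peaks of Commd7, Zfp467 and Rp1 (r = 0.998, 0.996 and 0.996), which differed far less between genotypes, with AKO means of 1245 against 1501 in flox for Commd7. For Ucp2 these were Spdef, Slc25a18 and Zfp316 and for Ucp3 Mir6400, Tbx2 and Sprtn, with r from 0.992 for Zfp316 to 0.999 for Mir6400. In inguinal fat they were Papln, Arl14ep and Mir5623 for the −11696 bp peak of Ucp1, Scfd1, Klhl26 and Ccne2 for Ucp2 and Gpd1, Tfrc and Ergic1 for the intron 1 peak of Ucp3. With 6 points, 238 of 32232 peaks reached an r over 0.95 with the Ucp1 start peak.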

How the data were processed

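ATAC-seq libraries came from the brown fat of 3 flox mice and 3 AKO mice, and from 3 aliquots each of the inguinal fat of 6 flox and of 6 AKO mice, pooled as tissue within a genotype before nuclei were taken. For both tissues the authors trimmed or kept reads at 38 bp, aligned them with BWA 0.7.17-r1188, removed duplicates with Picard 2.8.14, kept high-quality autosomal reads, called broad peaks with MACS2 2.1.1.20160309, kept peaks found in at least 2 replicates of a genotype, counted reads with bedtools 2.27.1 and assigned each peak to a gene with HOMER. The deposited signal of a peak in a sample is its read count after division by a size factor, from the authors' DESeq2 1.20.0 run. The tables also hold the authors' own comparisons, as deposited log2 fold changes and p-values, which were not used. Both tables cover the 19 autosomes, so that Gk, Slc25a14 and Slc25a5, on the X chromosome, are not analysed here.

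Whole reads could be recovered from 100% of the values (within 0.01 of a whole number), and 0 columns of sample values were left unused. Peaks were tested in R 4.3.3 with limma 3.58.1 on log2(normalized reads + 1), two-sided, with Benjamini-Hochberg adjustment over all peaks of a table and a threshold of 0.1. The covariate and the threshold followed the study, where the brown fat fit, unlike the inguinal fit, includes PC1. The study itself called peaks with DESeq2, and limma, used here in its place, called 0% of all peaks. DESeq2 1.42.0 and edgeR 4.0.16 on the recovered reads, limma with a mean-variance trend, other scalings, pseudocounts, filters, a replicate block and leaving out each sample were alternatives, and DESeq2 with each sample left out was added after seeing the data. DESeq2 gave an adjusted p to 42663 brown and 35723 inguinal peaks, and 3 peaks of the uncoupling protein genes, at −38889 and −19099 bp of Ucp1 and −38562 bp of Ucp3, got none. The scripts were tested on simulated data.

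All peaks with the symbol Ucp1, Ucp2 or Ucp3 were named, with Smarcd1, the 3 peaks of smallest unadjusted p of each list and tissue, the 3 most correlated genes on other chromosomes per member and the neighbours within 100 kb. Of the lymphocyte markers only the leukocyte gene Ptprc is reported here, and not the list as a whole. The members and gene lists were chosen with earlier results of these data known. Distances run from the GENCODE vM21 start to the peak's middle, on mm10. The total reads in peaks, 4066720 to 27500738 per sample, set the counting precision, and the inguinal p-values measure technical spread only. Peak widths, lists and matches were computed with Python 3.11.15, pandas 2.3.3 and numpy 2.4.6.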

Additional observations from a re-analysis of the deposited data

Results flagged for a closer look

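At 2 Ucp1 peaks found in both tissues, the AKO minus flox difference of the mean log2 values differed between the tissues at an unadjusted p under 0.05 in the exact permutation test. At −29667 bp the difference in brown fat minus that in inguinal fat was −0.89 (p = 0.025, adjusted p = 0.1 over 8 pairs, exact permutation test), and at −11433 bp it was −0.98 (p = 0.02, adjusted p = 0.1, exact permutation test). In both cases all AKO values lay below all flox values in brown fat, and the genotypes overlapped in inguinal fat. The inguinal peak at the second place covers 28.3% of the brown fat peak. Tissue, sequencing and the kind of replicate differ together between the tables and cannot be told apart. Age and housing temperature may differ as well, since the inguinal mice were cold-acclimated and neither is given for the brown fat mice.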

How the results depend on the processing

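Limma called 0 of the 21 brown and 0 of the 9 inguinal peaks of the uncoupling protein genes, also with other scalings, pseudocounts, filters, the replicate block and each sample left out. Without these changes it called 0% of all peaks in either tissue, so that 0 calls do not set the members apart. The exon 5 peak of Smarcd1, the targeted gene, was not called in brown fat either (adjusted p = 0.269 in limma). In brown fat limma with a trend called 4, edgeR 4, DESeq2 5 and DESeq2 without PC1 8, all of Ucp1, and DESeq2 with 1 mouse left out 3 to 4. In inguinal fat limma with a trend, edgeR and DESeq2 called 1 each, at Ucp2, and DESeq2 with 1 aliquot left out 0 to 1. Of the gene lists, limma called 0 peaks, as it called 0% of all peaks, and DESeq2 called 10. In brown fat these were 4 of 144 thermogenic peaks and 1 Smarcd1 peak, all lower, against 0.298% of all peaks. In inguinal fat they were 2 of 53 thermogenic peaks, higher, against 0.546%, and 3 peaks of Slc25a10, lower, against 0.630%. The count of matched pairs under an adjusted p of 0.1 was 0 and ranged from 0 to 2 with 1 sample left out, with 2 pairs (adjusted p = 0.08, exact permutation test) without inguinal flox aliquot 3 or AKO aliquot 2.

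The direction held under all alternatives for 16 of 21 brown peaks (27 alternatives) and 4 of 9 inguinal peaks (24 alternatives). For the others, as log2 fold changes, the cause was not tested. Ucp3 at −11131 bp was −0.29 without PC1 (−0.30 in DESeq2) and −0.093 to 0.23 with 1 mouse left out (−0.081 and −0.062 in DESeq2). Ucp3 at −7314 bp was −0.36 without PC1 (−0.35 in DESeq2). Ucp3 at −12855 bp was −0.18 to 0.15 with 1 mouse left out (0.15 in DESeq2). Ucp1 at −19099 bp was −0.017 with PC1 of the most variable peaks alone and −0.21 to 0.29 with 1 mouse left out (−0.21 in DESeq2). Without PC1 this peak was at 0.67 (0.69 in DESeq2). Ucp1 at +19710 bp was −0.27 to 0.045 with 1 mouse left out (0.050 in DESeq2). In inguinal fat, with 1 aliquot left out, Ucp3 at −7319 bp was −0.14 to 0.053 (0.018 and 0.042 in DESeq2), Ucp1 at −29489 bp −0.011 to 0.13 (−0.013 and −0.0079 in DESeq2), Ucp3 at −11092 bp −0.041 to 0.23 (−0.042 in DESeq2) and Ucp3 at +1529 bp −0.089 to 0.086 (0.057 and 0.086 in DESeq2). With PC1 as a covariate these were 1.11 for Ucp3 at −7319 bp, −1.11 for Ucp1 at −29489 bp and −0.089 for Ucp1 at −11696 bp, but PC1 (33.8% of the inguinal variance) separates the genotypes completely.

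Replicate numbers did not pair the samples, since same-numbered samples correlated at 0.49, 0.063 and −0.24 in brown and −0.039, −0.050 and −0.057 in inguinal fat, and not every sample correlated best with its own number. With the replicate block 0 peaks were called in either tissue, and log2 fold changes with block and PC1 were 0.30 for Ucp3 at −12855 bp, −0.023 for Ucp3 at −11131 bp and −0.22 for Ucp1 at −19099 bp. With the block and without PC1 they were −0.29 and −0.36 for Ucp3 at −11131 and −7314 bp. The smallest adjusted p of a matched pair under the replicate block was 0.417 in the exact permutation test. With 3 samples per group, 3 against 3, and 19 to 260 reads per inguinal peak, small differences could not be detected at this depth.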
